A study of Mus musculus with 6 samples.

Results

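Transcripts of the insulin-like growth factor (IGF) system were examined in mouse interscapular brown fat, a depot that burns lipid for heat. The group comprised 10 genes chosen by symbol: the ligands Igf1 and Igf2, the receptors Igf1r and Igf2r, and the binding proteins Igfbp2, Igfbp3, Igfbp4, Igfbp5, Igfbp6 and Igfbp7. All 10 were found among the 18507 genes of the deposited table, and 9 passed the filter on low counts, with Igfbp2 below it. RNA sequencing covered 3 Beclin1_KO samples, with the genotype given as Beclin1-/- and the knockout described as adipocyte-specific, and 3 wild-type (WT) samples, all on a C57BL/6 background. Tamoxifen at 75 mg/kg was gavaged in sunflower oil on 5 days to knockouts and WT controls alike to induce Cre recombination, although a treatment tag of all samples reads untreated. Mice of both genotypes were housed at 22 °C with 12 hours of light. The promoter that drives Cre, the age, the sex and the delay before tissue collection are not stated in the sources at hand. Beclin 1, encoded by Becn1, belongs to the lipid kinase complex that initiates autophagosomes, and the comparison asks what its loss changes in the tissue.

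IGF1 and IGF2 are small secreted hormones related to insulin that act through the receptor tyrosine kinase IGF1R. IGF2R, also the cation-independent mannose 6-phosphate receptor, removes IGF2 from the cell surface and carries lysosomal enzymes. The binding proteins hold the ligands in blood and matrix, lengthen their life and limit or deliver them to receptors, until proteases such as PAPP-A release them. In fat, IGF signalling is known for its part in the growth and differentiation of preadipocytes.

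Libraries held 50536315 to 60983193 counts in Beclin1_KO and 44269031 to 50842488 in WT. Becn1 had 58.0, 53.7 and 42.7 CPM (read counts scaled to library size and, by TMM, to library composition) in Beclin1_KO against 82.8, 86.4 and 89.2 CPM in WT (log2 fold change -0.74, SE 0.13, edgeR adjusted p = 0.00411). With scaling by library size alone the log2 fold change of Becn1 was -0.39 (adjusted p = 0.0543), and on the unfiltered log2(FPKM + 1) scale it was -0.39 (adjusted p = 0.0541). A gene count sums deleted and retained exons, and cells outside the adipocyte lineage keep the gene. The part of either in the Becn1 counts was not tested. Among all genes, 46.6% of the 15347 genes tested passed an adjusted p of 0.05, 24.8% higher and 21.8% lower, and the values of the groups did not overlap for 59.7%, with 31.4% higher and 28.2% lower in Beclin1_KO. Scaling by library size alone moved the median log2 fold change of all genes up by 0.35 and the share of higher genes among calls to 77.4%, against 53.3% with TMM. Summed skeletal muscle markers differed widely within each group, at 39658, 9613 and 1821 CPM in Beclin1_KO and 712, 20938 and 1434 CPM in WT. Beclin1_KO replicate 1 and WT replicate 2, each the highest of its genotype in this sum, are called the muscle-rich libraries below, and values without them are given where leaving them out ends a call. Markers of other cell types also differed between genotypes. The 13 adipocyte markers, among them Ucp1 and Adipoq, summed to 8979 to 16146 CPM in Beclin1_KO and 34197 to 38854 CPM in WT, and 11 fell. The 12 macrophage markers, none at 0 in any library, summed to 4514 to 7240 CPM in Beclin1_KO and 281 to 323 CPM in WT, and 12 rose. The 12 fibroblast and progenitor markers summed to 7876 to 13010 CPM in Beclin1_KO and 1731 to 2478 CPM in WT, and 10 rose. The 10 endothelial markers summed to 950 to 1200 CPM in Beclin1_KO and 1707 to 2029 CPM in WT, and 8 fell while Vwf rose. Of 9 lymphocyte markers 6 rose and 2 fell, of 8 mural cell markers 1 rose and 3 fell, of 6 Schwann cell and 4 lymphatic endothelial markers 1 rose and 1 fell in each list, and of 2 mesothelial markers 1 fell. In bulk tissue a change in the number of cells of a type and a change in RNA per cell cannot be told apart, and the part of these shifts in the results on the IGF genes was not tested.

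Of the 9 IGF genes tested, 7 passed, against 46.6% of all genes: Igf1, Igf2r, Igfbp3, Igfbp4, Igfbp6 and Igfbp7 rose and Igf2 fell, while Igf1r and Igfbp5 did not pass. The median log2 fold change was 0.98 over these 9 genes and 0.05 over all genes tested. The IGF genes were chosen with earlier results of these data known, so these figures are given as a description. Values of the groups did not overlap for 8 of the 9 (59.7% of all genes), the exception being Igfbp5. The direction of each of the 9 genes was the same under 19 alternative analyses.

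**Figure D1:**
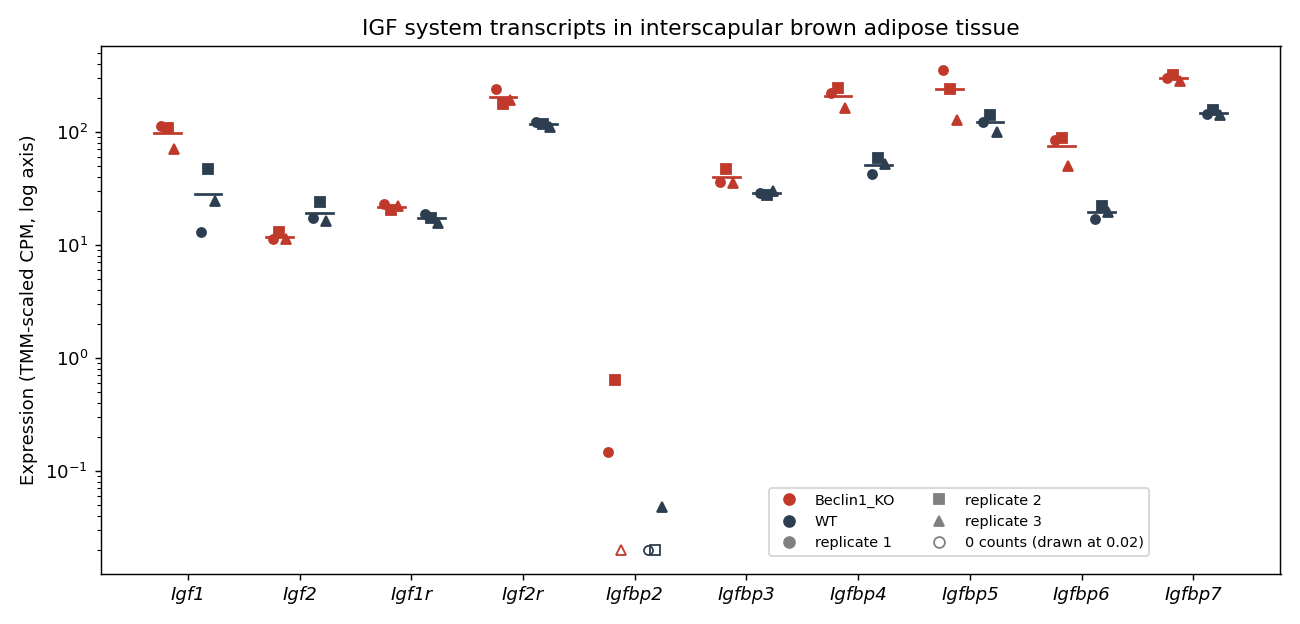
Expression of the 10 IGF system genes in each library, in TMM-scaled CPM on a log axis. Red symbols are Beclin1_KO and dark symbols WT, symbol shapes are replicates, lines are group means (not drawn for Igfbp2), and open symbols mark 0 counts. The knockout libraries lie above WT for Igf1, Igf1r, Igf2r, Igfbp3, Igfbp4, Igfbp6 and Igfbp7 and below WT for Igf2.

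The start regions of the 4 genes that rose at least 2-fold are shown. Igfbp7 (2.04-fold) just reached this cut-off and Igfbp5 (1.98-fold, not passing) just missed it. Shared regulation of these genes was not tested. Each is a RefSeq window on GRCm38.p6 of 300 bases, 250 before an annotated start site, which for Igf1 and Igfbp4 lies inside the gene span given below, and 50 after it, printed in the direction of transcription. Windows were found for all 10 symbols. The last bases of the window lie in a GENCODE transcript of the gene for Igf1, Igfbp4 and Igfbp7 but not for Igfbp6, so the Igfbp6 window rests on the RefSeq start alone. Igf1 is at chr10:87860861-87861160 on the plus strand, Igfbp4 at chr11:99040994-99041293 on the plus strand, Igfbp6 at chr15:102143936-102144235 on the plus strand and Igfbp7 at chr5:77407996-77408295 on the minus strand. Capitals mark matches on either strand to promoter motifs. These were the TATA box, written TATAAA, the GC box of SP1 factors, written GGGCGG, and the box of NF-Y, written CCAAT. An AP-1 site, written TGAGTCA, and a STAT site, written TTCNNNGAA, were also searched.
Igf1: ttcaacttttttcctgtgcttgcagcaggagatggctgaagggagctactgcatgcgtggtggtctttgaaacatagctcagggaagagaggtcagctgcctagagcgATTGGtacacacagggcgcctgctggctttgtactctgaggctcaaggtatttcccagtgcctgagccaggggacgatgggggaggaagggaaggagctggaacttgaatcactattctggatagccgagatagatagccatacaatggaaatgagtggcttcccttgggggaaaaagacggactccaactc
Igfbp4: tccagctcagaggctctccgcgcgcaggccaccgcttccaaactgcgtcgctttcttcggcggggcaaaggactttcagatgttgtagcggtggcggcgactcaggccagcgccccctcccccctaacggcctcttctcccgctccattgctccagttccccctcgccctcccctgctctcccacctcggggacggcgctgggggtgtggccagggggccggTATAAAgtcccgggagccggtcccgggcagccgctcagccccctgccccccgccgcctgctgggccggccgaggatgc
Igfbp6: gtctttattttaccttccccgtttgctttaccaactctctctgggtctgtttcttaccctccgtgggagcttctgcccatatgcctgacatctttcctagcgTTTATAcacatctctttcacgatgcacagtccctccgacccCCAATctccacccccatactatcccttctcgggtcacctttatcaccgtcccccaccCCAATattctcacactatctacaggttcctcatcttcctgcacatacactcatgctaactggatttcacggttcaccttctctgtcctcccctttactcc
Igfbp7: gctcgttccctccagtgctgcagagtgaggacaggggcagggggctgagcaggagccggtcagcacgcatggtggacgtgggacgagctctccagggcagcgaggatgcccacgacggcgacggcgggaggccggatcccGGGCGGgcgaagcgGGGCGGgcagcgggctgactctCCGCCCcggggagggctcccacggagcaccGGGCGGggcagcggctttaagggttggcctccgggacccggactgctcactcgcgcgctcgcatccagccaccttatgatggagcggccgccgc

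The windows differed in base composition and in the motifs they held. GC content was 52.3% in the Igf1 window, 71.3% in that of Igfbp4, 49.7% in that of Igfbp6 and 73.3% in that of Igfbp7, against a mean of 53.8% over 32851 windows. Igfbp4 had a TATA box at position -28, counted from the start site, and Igfbp6 had another at -148 that reads on the opposite strand, a motif held by 13.6% of all windows. Igfbp7 had 4 GC boxes, at -110, -96, -74 and -44, and 35.7% of all windows held at least 1. Igf1 had a single CCAAT box at -142 and Igfbp6 a pair at -107 and -50, a motif in 37.4% of all windows. AP-1 and STAT matches were in none of these 4 windows, against 5.20% and 8.30% of all windows. A match is a run of letters and not a shown binding site.

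The ligands moved in opposite directions. Igf1 (Entrez Gene 16000, chromosome 10, 87858265 to 87937047, plus strand, GRCm38) encodes the growth factor made in liver under growth hormone and locally in many tissues, fat included. It had 113, 108 and 70.0 CPM in Beclin1_KO and 12.8, 46.8 and 24.2 CPM in WT. Each knockout library exceeded each WT library, and the WT libraries spread 3.64-fold from lowest to highest, against 1.62-fold in the knockouts. The mean was 97.1 ± 23.6 CPM in Beclin1_KO and 27.9 ± 17.3 CPM in WT (SD, n = 3 each), a 3.47-fold rise (log2 fold change 1.80, SE 0.49, adjusted p = 0.0279). The call was lost without WT replicate 3 (log2 fold change 1.68, adjusted p = 0.103), Beclin1_KO replicate 1 (1.67, adjusted p = 0.0778) or Beclin1_KO replicate 2 (1.72, adjusted p = 0.0803). Without the muscle-rich libraries the log2 fold change was 2.26 (adjusted p = 0.0141). Within each genotype the order of the libraries in Igf1 was also their order in summed muscle markers. In Beclin1_KO, but not in WT, it was the order of the summed macrophage markers as well. The part of either cell type in the spread was not tested.

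Igf2 (Entrez Gene 16002, chromosome 7, 142650768 to 142666816, minus strand) is the fetal growth factor expressed mostly from the paternal allele. It had 11.3, 12.8 and 11.1 CPM in Beclin1_KO and 17.2, 23.6 and 16.3 CPM in WT, without overlap. The mean was 11.8 ± 0.923 CPM in Beclin1_KO and 19 ± 4.01 CPM in WT (SD, n = 3 each), a 1.62-fold fall (log2 fold change -0.69, SE 0.17, adjusted p = 0.0159). Igf2 did not pass when libraries were scaled by size alone (log2 fold change -0.34, adjusted p = 0.195), a setting that moves the median of all genes up by 0.35. Likewise it did not pass on the log2(FPKM + 1) scale (-0.25, adjusted p = 0.236), or without the muscle-rich libraries (-0.48, adjusted p = 0.0891). The table lists 5 RefSeq transcripts for Igf2 with 1 count per library, so its several promoters cannot be told apart. H19, the imprinted noncoding RNA beside Igf2 that is abundant in developing muscle, did not pass. It had 471, 123 and 19.2 CPM in Beclin1_KO and 5.92, 591 and 32.2 CPM in WT (adjusted p = 0.988), and within each genotype its order over the libraries was that of the summed muscle markers.

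FPKM, which divides by transcript length, allows levels of different genes to be compared within a library. It is not scaled to library composition. On the FPKM scales the median log2 fold change of all genes lay 0.31 to 0.34 above that with TMM. FPKM levels and sums set between genotypes carry that shift. The Igf1 to Igf2 ratio in FPKM was 5.52, 4.54 and 3.38 in the knockout libraries and 0.413, 1.08 and 0.818 in the WT libraries. Igf1 was thus the more abundant ligand transcript in each knockout library, whereas Igf2 was the more abundant in WT replicates 1 and 3. Summed FPKM of the ligands was 20.2, 21.6 and 13.9 in Beclin1_KO and 5.68, 11.2 and 6.23 in WT.

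**Figure D2:**
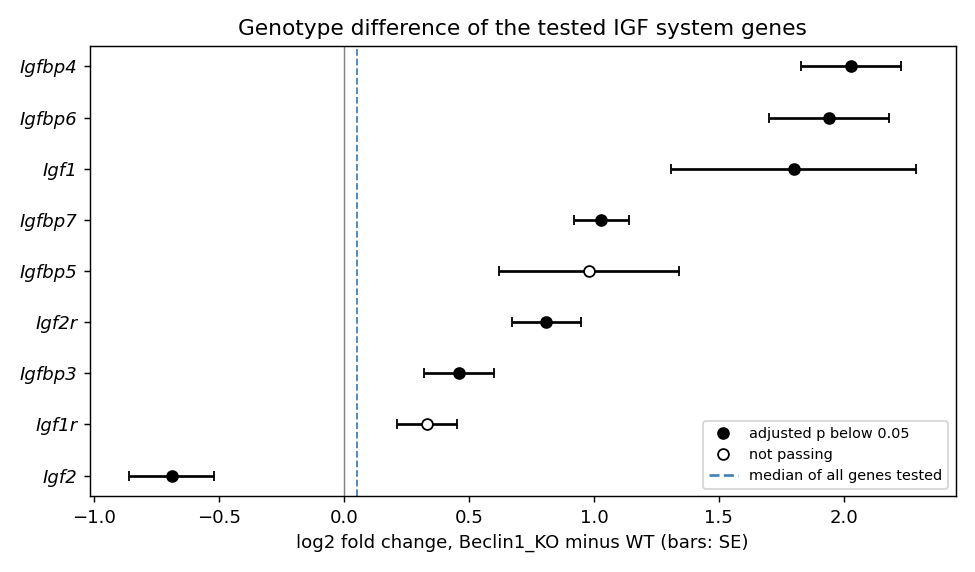
Log2 fold change (Beclin1_KO minus WT) of the 9 tested genes with its SE, from edgeR. Filled points passed an adjusted p of 0.05, open points did not, and the dashed line is the median of all genes tested, 0.05. Igfbp4 was highest at 2.03 and Igf2 the only gene below 0, at -0.69.

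Among the receptors Igf2r rose and Igf1r did not pass. Igf2r (Entrez Gene 16004, chromosome 17, 12682406 to 12769706, minus strand) had 240, 177 and 191 CPM in Beclin1_KO and 121, 117 and 109 CPM in WT. Its mean of 203 ± 32.9 CPM in Beclin1_KO and 116 ± 6.13 CPM in WT (SD, n = 3 each) amounts to a 1.75-fold rise (log2 fold change 0.81, SE 0.14, adjusted p = 0.00411), and it passed in all 19 alternatives. In mice the antisense transcript Airn overlaps Igf2r. Airn had 140 to 360 counts per library, against at least 4607 for Igf2r. Igf1r (Entrez Gene 16001, chromosome 7, 67952257 to 68233668, plus strand), the signalling receptor, had 22.7, 20.3 and 21.8 CPM in Beclin1_KO and 18.7, 17.2 and 15.5 CPM in WT. These values did not overlap, yet the difference missed the threshold (log2 fold change 0.33, SE 0.12, adjusted p = 0.0539). In the authors' deposited table the adjusted p of Igf1r was 0.0477, and the gene passed in 6 of 19 alternatives. These include scaling by library size alone (log2 fold change 0.68) and the FPKM scales (0.42 to 0.64). Those settings move the median of all genes up by 0.31 to 0.35. In FPKM, Igf2r exceeded Igf1r 11.7-fold to 14.2-fold in the knockout libraries and 8.71-fold to 9.47-fold in WT.

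Binding protein transcripts rose in 4 of the 5 genes tested, against 24.8% of all genes, and Igfbp3 of these 4 lost its call in 6 of 19 alternatives. Igfbp4 (Entrez Gene 16010, chromosome 11, 99040005 to 99052655, plus strand), whose protein mostly restrains IGF action until PAPP-A cleaves it, had 221, 241 and 162 CPM in Beclin1_KO and 42.2, 58.9 and 51.3 CPM in WT. That was a 4.09-fold rise, the largest of the group (log2 fold change 2.03, SE 0.20, adjusted p = 0.000396). Igfbp6 (Entrez Gene 16012, chromosome 15, 102144186 to 102149512, plus strand), which binds IGF2 with preference over IGF1, had 83.9, 88.2 and 49.7 CPM in Beclin1_KO and 16.7, 21.9 and 19.3 CPM in WT. It rose 3.84-fold (log2 fold change 1.94, SE 0.24, adjusted p = 0.000966). For Igf1, Igfbp4 and Igfbp6 alike, the lowest of the knockout libraries was replicate 3, as for Igf2, Igfbp3, Igfbp5 and Igfbp7. Replicate 3 also had the lowest summed fibroblast and progenitor (7876 CPM), macrophage (4514 CPM) and muscle markers (1821 CPM) of the knockouts. Its adipocyte markers were the highest of them (16146 CPM). In WT, Igf1, Igfbp4 and Igfbp6 were lowest in replicate 1, as were muscle markers. Fibroblast and macrophage markers of WT were lowest in replicate 3. The part of cell types in these orders was not tested.

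Igfbp7 (Entrez Gene 29817, chromosome 5, 77349240 to 77408045, minus strand) encodes a matrix and vessel-associated protein that binds IGFs only weakly. It had 295, 315 and 281 CPM in Beclin1_KO and 143, 155 and 139 CPM in WT, a 2.04-fold rise with little spread inside either group (log2 fold change 1.03, SE 0.11, adjusted p = 0.000583). In the same libraries 8 of 10 endothelial markers fell. Igfbp7 overlaps Polr2b on the opposite strand, and the sources used here do not give the use of strand in counting. Polr2b had 2326 to 3465 counts per library. Igfbp7 had 5841 to 6927 counts in WT and 16274 to 20225 in Beclin1_KO. Igfbp3 (Entrez Gene 16009, chromosome 11, 7206086 to 7215498, minus strand), the main IGF carrier of serum, had 36.1, 47.1 and 35.0 CPM in Beclin1_KO and 28.4, 27.7 and 29.6 CPM in WT. The 1.38-fold rise (log2 fold change 0.46, SE 0.14, adjusted p = 0.0299) was no longer called without any of WT replicates 1, 2 and 3 (adjusted p = 0.0949, 0.0975 and 0.0816) or Beclin1_KO replicate 2 (log2 fold change 0.32, adjusted p = 0.0687). The call was also lost without the muscle-rich libraries (0.50, adjusted p = 0.1).

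Igfbp5 and Igfbp2 are neighbours on chromosome 1, with 5590 bases between them and convergent transcription, and their levels were far apart. Igfbp5 (Entrez Gene 16011, 72858065 to 72874865, minus strand), a matrix-binding protein known from muscle differentiation, had 351, 236 and 127 CPM in Beclin1_KO and 122, 139 and 99.9 CPM in WT. The knockout values spread 2.75-fold and replicate 3 fell inside the WT range (log2 fold change 0.98, SE 0.36, adjusted p = 0.0627). The order of the knockout libraries matched that of the summed muscle markers and also that of the macrophage markers. In WT the highest library was that of the muscle markers, but the full order differed from theirs. It matched the order of the fibroblast and progenitor markers and of the macrophage markers. The part of these cell types in the spread was not tested. Without Beclin1_KO replicate 3 Igfbp5 passed (log2 fold change 1.28, adjusted p = 0.00498), without the muscle-rich libraries it had a log2 fold change of 0.71 (adjusted p = 0.157), and in the authors' deposited table its adjusted p was 0.0107. Igfbp2 (Entrez Gene 16008, 72824480 to 72852474, plus strand), a main circulating binding protein, had 8, 41 and 0 counts in Beclin1_KO and 0, 0 and 2 counts in WT. A sizeable count was thus seen in Beclin1_KO replicate 2 alone, and without the low-count filter the adjusted p was 0.154.

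**Figure D3:**
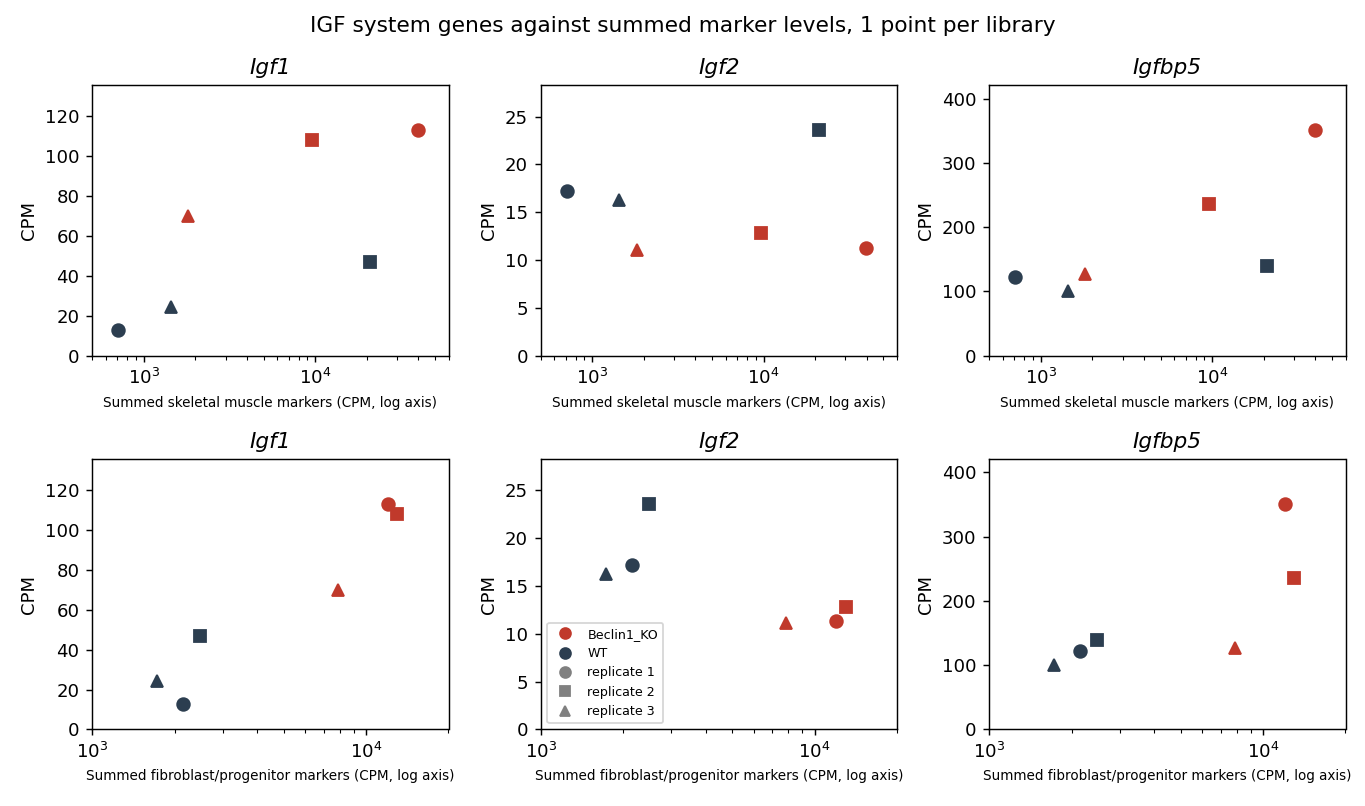
TMM-scaled CPM of Igf1, Igf2 and Igfbp5 against the summed CPM of skeletal muscle markers (upper row) and of fibroblast and progenitor markers (lower row), with the sums on log axes, with 1 point per library, Beclin1_KO in red and WT in dark. Igfbp5 is highest in Beclin1_KO replicate 1, at 351 CPM, where muscle markers sum to 39658 CPM.

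Igfbp7 was the most abundant of the 10 transcripts in both genotypes on the FPKM scale, with a mean of 294 ± 29.4 in Beclin1_KO and 113 ± 10.6 in WT (SD, n = 3 each). Igfbp4 came next in both, with a mean of 112 FPKM in Beclin1_KO and 21.3 FPKM in WT. In Beclin1_KO, Igfbp6 (63.8) and Igfbp5 (44.9) followed with overlapping ranges, then Igf2r (25.1), then Igfbp3 (17.9) and Igf1 (15.2) with overlapping ranges, and Igf2 (3.39), Igf1r (1.99) and Igfbp2 (0.223) were lowest. In WT the ranges of Igfbp4 and Igfbp5 (18.0) overlapped, as did those of Igfbp5 and Igfbp6 (13.0), of Igfbp6 and Igf2r (11.3), of Igf2r and Igfbp3 (10.1), and of Igf2 (4.27) and Igf1 (3.43). Igf1 therefore moved above Igf2 in the order of means, and Igfbp6 above Igfbp5.

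Igfbp4 and Igfbp6 held a larger share of the binding protein transcripts in each knockout library than in each WT library. Of the summed FPKM of the 6 binding proteins, Igfbp4 held 21.0%, 22.1% and 19.4% in the knockout libraries and 10.6%, 13.1% and 12.9% in the WT libraries. Igfbp6 held 12.8%, 13.0% and 9.57% in Beclin1_KO and 6.69%, 7.76% and 7.76% in WT. Igfbp7, although higher in absolute terms, held 51.6%, 53.5% and 62.1% in Beclin1_KO and 65.9%, 63.1% and 64.2% in WT. Igfbp3 averaged 3.37% ± 0.415 in Beclin1_KO and 5.83% ± 0.571 in WT (SD, n = 3 each). Shares of these 4 genes did not overlap between genotypes, and the exact two-sided permutation test gave p = 0.1 for each, the smallest p that 3 against 3 libraries allow. No share was therefore called, and shares of the same total depend on each other. Igfbp5 averaged 8.26% ± 3.22 in Beclin1_KO and 10.2% ± 1.15 in WT, with overlap (exact permutation p = 0.4). Summed binding protein FPKM, not scaled to library composition, was 546, 613 and 439 in Beclin1_KO and 177, 191 and 157 in WT. Per unit of summed ligand FPKM this came to 27.0, 28.4 and 31.5 in Beclin1_KO and 31.2, 17.1 and 25.1 in WT, with overlap.

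**Figure D4:**
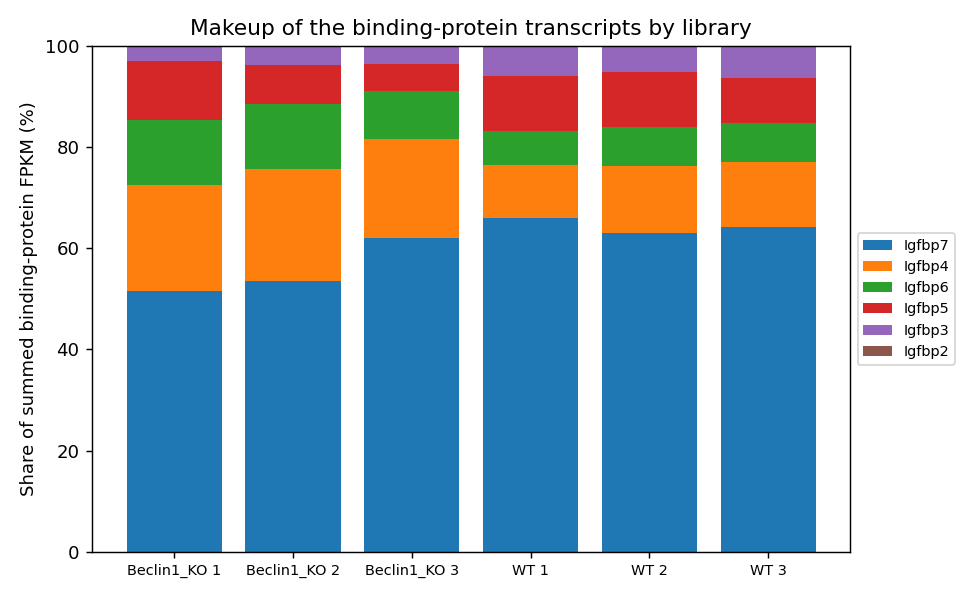
Share of each binding protein in the summed FPKM of the 6 binding proteins, with 1 bar per library, Beclin1_KO left and WT right. Igfbp4 takes 19.4% to 22.1% in Beclin1_KO and 10.6% to 13.1% in WT. Igfbp2, at most 0.0900%, is too small to see.

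Proteases that cut binding proteins, and the inhibitors of those proteases, were higher or did not pass. Of 12 tested, 8 rose, 0 fell and 4 did not pass (median log2 fold change 1.52, against 0.05 over all genes), where 24.8% of all genes rose and 21.8% fell. This list and those below were chosen with earlier results of these data known. Their counts and medians beside those of all genes are therefore a description only. The call of Adam9 was lost without WT replicate 1 or 3 or Beclin1_KO replicate 2 or 3 (adjusted p = 0.0915 to 0.107). The matrix metalloprotease Mmp3 rose 18.0-fold, with 51.6 ± 13.9 CPM in Beclin1_KO and 2.86 ± 1.51 CPM in WT (SD, n = 3 each, adjusted p = 0.000732). Among the secreted serine proteases Htra3 rose with a log2 fold change of 2.07 (adjusted p = 0.000313) and Htra1 with 0.97 (adjusted p = 0.00223). Plau, the urokinase that activates plasmin, had a log2 fold change of 1.99 (adjusted p = 0.000393). PAPP-A itself was low: Pappa had 1.92 ± 0.446 CPM in Beclin1_KO and 0.973 ± 0.491 CPM in WT (SD, n = 3 each, adjusted p = 0.136). Its inhibitors Stc1 and Stc2 had adjusted p-values of 0.843 and 0.341. Igfals, which completes the circulating ternary complex with IGFBP3, was lower, at 4.56 ± 0.347 CPM in Beclin1_KO and 9.09 ± 2.54 CPM in WT (log2 fold change -1.0, adjusted p = 0.0121), a call lost with scaling by library size alone (-0.64, adjusted p = 0.0572) and without the muscle-rich libraries (-0.77, adjusted p = 0.0728).

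Of 16 genes that act next to the IGF1 and insulin receptors, 7 rose, 5 fell and 4 did not pass (median log2 fold change 0.48), where 24.8% of all genes rose and 21.8% fell. Without the muscle-rich libraries 4 rose and 2 fell, and with scaling by library size alone 8 rose and 2 fell. The insulin receptor gene Insr had 73.8, 72.1 and 113 CPM in Beclin1_KO and 133, 132 and 136 CPM in WT, and fell 1.55-fold (adjusted p = 0.0314). The docking protein gene Irs1 fell 2.1-fold (adjusted p = 0.0273) and the adaptor gene Sh2b2 4.87-fold (adjusted p = 0.00146). Irs2 had 48.7 ± 51.3 CPM in Beclin1_KO and 30.5 ± 7.72 CPM in WT (SD, n = 3 each, adjusted p = 0.535), with 108 CPM in Beclin1_KO replicate 3. Rises included Grb2, an adaptor to the RAS pathway (log2 fold change 1.26, adjusted p = 0.000172), Ptpn1, a phosphatase of these receptors (1.84, adjusted p = 5.99e-05), and Socs3, a feedback inhibitor (3.72, adjusted p = 0.00158). Grb10, an imprinted inhibitor of both receptors, rose 1.80-fold (adjusted p = 0.0272). Calls were lost without a single library for Insr (each of them but Beclin1_KO replicate 3, adjusted p = 0.0662 to 0.0985), for Irs1 (WT replicates 2 and 3, 0.0768 and 0.0727) and for Grb10 (each but Beclin1_KO replicate 3, 0.0604 to 0.0992). Scaling by library size alone ended the calls of Insr (adjusted p = 0.246) and Irs1 (0.0984), and leaving out the muscle-rich libraries ended those of Insr (0.157), Irs1 (0.0882), Grb10 (0.102), Shc1 (0.0567), Rack1 (0.0772) and Ptpn11 (0.0937). Ptpn11 also lost its call with scaling by library size alone (adjusted p = 0.32) and when any of Beclin1_KO replicates 1 and 2 and WT replicate 3 was left out (0.0652 to 0.0821).

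In the growth hormone axis, which drives Igf1 transcription in liver, 2 of 6 tested genes rose, 1 fell and 3 did not pass (median log2 fold change -0.22), a share of calls near the 46.6% of all genes. The fall, in Stat5a, was lost with scaling by library size alone (adjusted p = 0.152), without the muscle-rich libraries (0.13) and without any of WT replicates 2 and 3 and Beclin1_KO replicates 1 and 2 (0.0569 to 0.0774). Jak2, which rose, lost its call without WT replicate 1 (adjusted p = 0.0697) or 3 (0.0757). Ghr, the growth hormone receptor, had 153 ± 27.0 CPM in Beclin1_KO and 209 ± 40.2 CPM in WT (SD, n = 3 each, adjusted p = 0.103). Stat5b stood at 85.3 ± 18.8 and Cish at 60.7 ± 35.4 CPM in Beclin1_KO, against 85.4 ± 9.73 and 84.3 ± 65.3 CPM in WT (SD, n = 3 each, adjusted p = 0.990 and 0.638). Socs2, a feedback inhibitor of growth hormone signalling, rose 2.06-fold (adjusted p = 0.0161), a call lost without WT replicate 3 (0.0638) or Beclin1_KO replicate 2 (0.0561).

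In the remaining lists, too, counts of calls are given beside the 24.8% of all genes called higher and 21.8% called lower, as a description of lists chosen with earlier results known. Igf2bp2, which binds Igf2 mRNA, rose 4-fold, with 20.2, 24.7 and 24.2 CPM in Beclin1_KO and 6.18, 6.49 and 4.56 CPM in WT (adjusted p = 0.000297), opposite to Igf2. Of 8 cell-surface partners of binding proteins 5 rose and 0 fell (median log2 fold change 0.74), among them Lrp1, a receptor of IGFBP3, at 1191, 1006 and 1229 CPM in Beclin1_KO and 407, 405 and 438 CPM in WT (log2 fold change 1.45, adjusted p = 0.000427). Itgb1 of this list lost its call without the muscle-rich libraries (adjusted p = 0.181) and without any single library but Beclin1_KO replicate 3 (0.0594 to 0.122). M6pr, the cation-dependent mannose 6-phosphate receptor, rose 1.74-fold (adjusted p = 0.00166), and of the 4 genes of its list 2 rose and 0 fell (median 0.38), with Nagpa lost without the muscle-rich libraries (adjusted p = 0.0906). Of 7 tested genes of CCN and IGFBP-domain proteins, 4 rose (Ctgf, Nov, Wisp1 and Wisp2) and Kazald1 fell (median 0.88). Without the muscle-rich libraries the rises were 2, with Ctgf (adjusted p = 0.0634) and Nov (0.181) lost, and Nov was also lost without any single library but Beclin1_KO replicate 3 (0.0557 to 0.136). Wisp1 of this list had 13.0, 11.3 and 4.90 CPM in Beclin1_KO and 0.435, 0.536 and 0.237 CPM in WT (log2 fold change 4.58, adjusted p = 0.000610). Among 12 imprinted genes of the Igf2 network 4 rose, 3 fell and 5 did not pass (median 0.03). The rises include a gene already counted among the fibroblast and progenitor markers, and Grb10, already counted among the genes next to the receptors. Without the muscle-rich libraries 2 rose and 2 fell, with Plagl1 (adjusted p = 0.0836), Grb10 (0.102) and Ndn (0.0977) lost. Plagl1 and Grb10 also lost their calls without any single library but Beclin1_KO replicate 3 (0.0521 to 0.109 for Plagl1, 0.0604 to 0.0992 for Grb10), and Peg3 (0.0566) and Ndn (0.067) with scaling by library size alone. Meg3 rose 3.60-fold (adjusted p = 0.00427), Gnas fell 2.72-fold (adjusted p = 0.00255), and Dlk1, a preadipocyte factor, stood at 2.19 ± 0.732 CPM in Beclin1_KO and 3.27 ± 1.28 CPM in WT (SD, n = 3 each, adjusted p = 0.258).

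**Figure D5:**
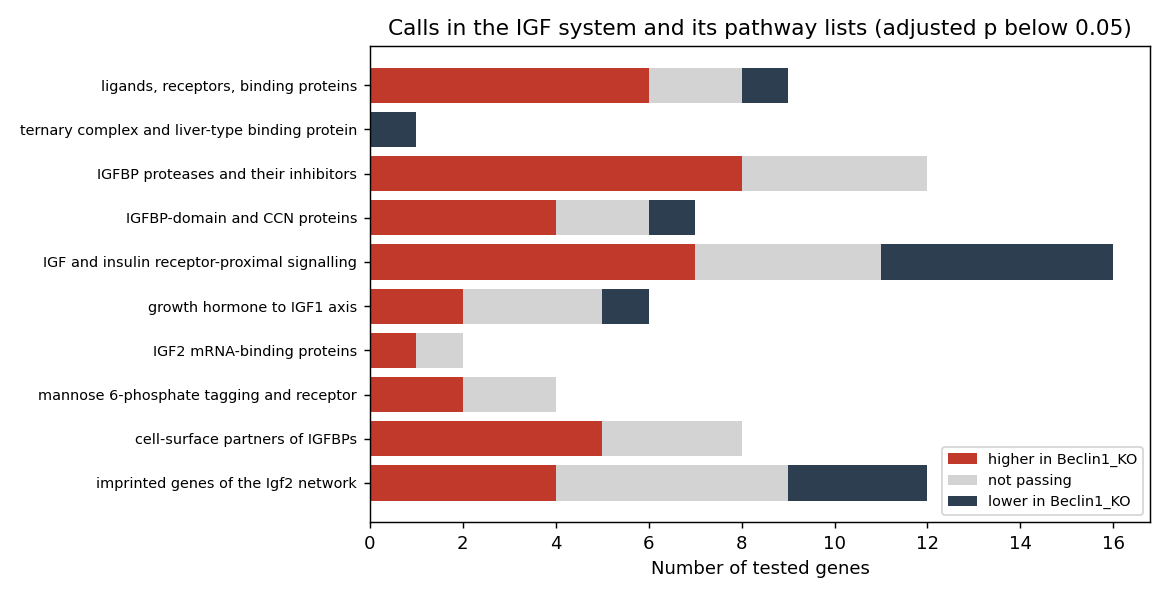
Number of tested genes in each list that were higher in Beclin1_KO (red), did not pass (grey) or were lower (dark), by an edgeR adjusted p of 0.05. All of the calls among the 12 protease and inhibitor genes are in the higher direction, 8 in number, and the receptor-proximal list is split, 7 higher and 5 lower.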

How the data were processed

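Polyadenylated RNA was taken up in Trizol and sequenced from stranded TruSeq libraries, per the labels' protocols. Per the submitters' processing notes, the build was mm10 and the tools included HISAT2 2.1.0, StringTie 1.3.4d, Trimmomatic, bcl2fastq 2.20.0 and DESeq2. The authors deposited unnormalized read counts and FPKM per gene and sample, per the file headers. The authors' deposited comparison holds a signed fold change (a score) and p-values, used here only for adjusted p-values of named genes. A further 6 per-sample columns were not used.

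Groups came from sample titles, and the design text calls the samples biological replicates. The main test on the counts was run in R 4.3.3 with edgeR 4.0.16: filterByExpr (15347 genes kept, 3160 removed), TMM scaling, a robust quasi-likelihood fit of genotype, and Benjamini-Hochberg adjustment over all genes tested. Log2 fold changes are Beclin1_KO minus WT, and the SE is the log2 fold change over the square root of F. The common dispersion was 0.110 (biological coefficient of variation 33.2%). Shares of summed FPKM were compared by exact permutation (scipy 1.17.1). The IGF genes and lists were chosen with earlier results of these data known. All listed IGF genes were named, pathway genes were named if they passed or were on a set list of 16 symbols, and 3 nearest genes were named per ligand. The values of 1 pathway gene are not reported here. Alternatives covered scaling, filters, DESeq2 1.42.0, limma 3.58.1 (voom, or log2 FPKM with a pseudocount of 1 or 0.1, keeping genes that reach 1 FPKM in 3 libraries, or all genes), the replicate block and left-out libraries. Positions are RefSeq, GRCm38.p6, matched by Entrez Gene number. The code was tested on simulated data.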

Additional observations from a re-analysis of the deposited data

How the results depend on the processing

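No IGF gene changed direction in the 19 alternatives. Igf2r, Igfbp4, Igfbp6 and Igfbp7 passed in all 19, Igf1 in 16, Igf2 in 14, Igfbp3 in 13, and Igf1r and Igfbp5 in 6 each, while 31.8% to 53.0% of all genes tested were called in these alternatives. Both Igf1r and Igfbp5 passed with library size only and on the FPKM scales, which move the median of all genes up by 0.31 to 0.35. All 48 alternative share differences moved by less than 1 SD. A factor that scales a whole library cancels in a share within it, so part of this outcome was fixed in advance. Genes higher in Beclin1_KO numbered 5787 with library size only and 5716 on unfiltered log2(FPKM + 1), against 3810. Genes lower numbered 1694 with library size only, 1706 and 1696 on filtered log2(FPKM + 1) and log2(FPKM + 0.1), 1742 unfiltered and 2054 without the muscle-rich libraries, against 3340, and in these 5 settings 0 IGF genes were called lower. The causes were not tested. Signs turned only for uncalled genes. Stc1 had a log2 fold change of 0.22 with library size only, 0.06 on unfiltered FPKM and 0.27 without the muscle-rich libraries, and Ghr 0.14, 0.15 and 0.14 on the FPKM scales. Stat5b had 0.00 with upper-quartile scaling, 0.35 with library size only, 0.01 with no or a stricter filter, and 0.30, 0.32 and 0.30 on the FPKM scales. H19 had 0.28 with library size only, 1.12 with voom, 1.3, 1.44 and 1.3 on the FPKM scales and 1.90 without the muscle-rich libraries. Leaving out single libraries gave -0.90 to 0.20 for Stc1, -0.67 to 1.11 for Irs2, -0.19 to 0.12 for Stat5b, -0.88 to 0.36 for Cish and -1.56 to 3.40 for H19. Samples of Beclin1_KO and WT share only a replicate number: the deviations of same-numbered samples correlated at -0.309, 0.0698 and 0.276. With the replicate block 6403 genes were called, against 7150, H19 had a log2 fold change of 0.13, and the calls of Igfbp3 (adjusted p = 0.0592), Nov (0.0757) and Itgb1 (0.0585) were lost, while Ghr passed (0.0488). Igfbp2 had at most 41 counts in a library, and 0 in Beclin1_KO replicate 3, the library with the most counts (60983193).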

Other observations

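Over the 6 libraries, the genes whose TMM-scaled log2 profile lay nearest to Igf1 among 11116 searched, each with a mean of at least 5 CPM and centred on its own mean, were Ncs1, a neuronal calcium sensor (root-mean-square difference 0.24), Tnfaip3, a regulator of NF-kappaB signalling (0.31), and Serpine2, a serine protease inhibitor (0.31). Ncs1 had 11.1, 12.4 and 5.75 CPM in Beclin1_KO and 1.28, 4.29 and 1.54 CPM in WT, with the highest WT value in replicate 2, as for Igf1. Nearest to Igf2 were Smco4 (0.08), Bcl2l12 (0.09) and Tbc1d13 (0.10), and the last had 73.4, 82.4 and 71.5 CPM in Beclin1_KO and 119, 136 and 116 CPM in WT. These likenesses rest on 6 libraries that share the genotype difference and are given as a description.

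Transcripts known from liver, the main source of circulating IGF1, were low, and 4 of 5 passed as higher in Beclin1_KO (24.8% of all genes did). With their low WT counts these 4 passed the low-count filter only through the Beclin1_KO libraries. They could thus hardly be called lower, and no excess over all genes is read from them. Alb, the serum albumin gene, had 1686, 1192 and 656 counts in Beclin1_KO and 14, 3 and 24 counts in WT (log2 fold change 5.91, SE 0.80, edgeR adjusted p = 0.00208). Serpina1a had 90, 100 and 63 counts in Beclin1_KO and 0 in each WT library. Apoa1 had 92, 103 and 68 counts in Beclin1_KO and 6, 7 and 0 in WT, and Ttr had 100, 129 and 75 counts in Beclin1_KO and 0, 0 and 10 in WT. Cyp2e1 had 58.1, 14.1 and 10.3 CPM in Beclin1_KO and 21.7, 23.1 and 17.3 CPM in WT (edgeR adjusted p = 0.66). The 5 liver markers summed to 93.8, 37.9 and 23.0 CPM in Beclin1_KO and 22.2, 23.4 and 18.1 CPM in WT, with overlap, and Cyp2e1 held the larger part of each sum but those of Beclin1_KO replicates 2 and 3. These liver genes were chosen for naming after their values were seen, and the source of these reads was not tested.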
